A study of Mus musculus with 610 samples.

Results

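Sox13-detected DN1d cells are single thymus cells of the DN1d gate in which the assay for the transcription factor Sox13 gave a signal. They were chosen by a measured value, a Sox13 threshold cycle (Ct) below the ceiling of 24, at which a reaction was taken as not detected. The rule kept 176 of the 610 cells of the series: 83 of 86 DN1d cells from Tcrd-/- mice, and 36 of 72, 31 of 70 and 26 of 81 DN1d cells in B6 runs 1, 2 and 3, which makes 93 of 223 B6 cells. The comparison holds Sox13 detection equal and asks which of the 47 other assays still differed between the genotypes.

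The series profiled progenitors of Tgd17 cells with a panel of 48 quantitative PCR assays, read in single cells captured on a Fluidigm C1. B6 cells came from C57BL/6J mice with no targeted allele named, and Tcrd-/- cells from B6.129P2-Tcrd tm1Mom mice, which carry a targeted T cell receptor delta gene. Both groups were taken at postnatal days 7 to 10 and sorted as live thymus cells without surface TCR delta, lineage markers, CD25 or cKit and with CD44 and CD24; no treatment is named for either. The Tcrd-/- cells came from 1 run and the B6 cells from 3, the labels give no animals for any run, and genotype and run cannot be told apart. The Tcrd-/- run was assumed to vary as the B6 runs do, and all p-values measure the spread between B6 runs, which may be technical. No assay of the panel checks the Tcrd deletion itself.

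Tgd17 cells are gamma delta T cells that make interleukin-17 and settle in skin and mucosa soon after birth. Sox13 and Sox4 are high mobility group box transcription factors needed for their development, Maf is a transcription factor that drives their programme, and Blk is a Src family kinase they need. The junction assays of the panel read rearranged gamma (Vg2-Jg1) and delta (Vd4-Jd1, Vd5-Jd1) receptor genes. In T cell progenitors more widely, Notch signals and the factors Tcf7, Gata3, Runx1 and Bcl11b set the T lineage, and E proteins, the products of Tcf3 and Tcf12, control receptor gene rearrangement.

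Sox13 itself chose the cells and is described without a test. Its level, 24 minus Ct in PCR cycles, averaged 9.44, 8.92 and 10.2 cycles in B6 runs 1, 2 and 3 and 11.7 cycles in the Tcrd-/- run. The threshold cut through few cells: the lowest levels among the members were 0.146 cycles in a Tcrd-/- cell, 1.41 in a cell of B6 run 3 and 4.15 in a cell of B6 run 2, and all 133 DN1d cells left out stood exactly at the ceiling.

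The cells detected most Tgd17 genes of the panel and few myeloid markers, but type 1 effector assays were common too. Of the 9 panel genes of the Tgd17 programme, a cell detected a median of 7 in each B6 run and 8 in the Tcrd-/- run, with a mean summed level of 68.7, 62.9 and 68.6 cycles in the B6 runs and 85.1 cycles in the Tcrd-/- run. Markers of myeloid and dendritic cells were scarce: Csf1r, the receptor for macrophage colony-stimulating factor, was found in 0 of 176 cells, a count that leaves a share of up to 1.70% possible. Any of the 4 myeloid assays was detected in 0, 1 and 2 cells of the B6 runs and in 5 of 83 Tcrd-/- cells, and Gp49a alone had the same counts. Their summed level averaged 0 to 0.672 cycles in the B6 runs and 1.19 cycles in the Tcrd-/- run. Csf2rb2 and Spi1 were detected in 3 and 2 Tcrd-/- cells and in 0 of 93 B6 cells, a limit of 3.23%. The B cell list had no assay in the panel.

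Sox13-detected cells of Tcrd-/- mice had more of the panel detected per cell than those of B6 mice. A cell detected on average 23.8, 23.9 and 24 of the 47 other assays in B6 runs 1, 2 and 3 and 30.3 in the Tcrd-/- run. The runs did not overlap in their means, while single cells ranged from 13 to 34 in B6 and from 16 to 36 in Tcrd-/- mice. The share of cells with at least 29 other assays was 19.4%, 16.1% and 19.2% in the B6 runs and 80.7% in the Tcrd-/- run. The mean difference was 6.44 assays, and the 3 B6 means had an SD of 0.0836. Cells within a B6 run varied far more, with SDs of 4.79, 3.90 and 5.23 assays. The closeness of the 3 means is therefore no measure of precision. An exact permutation test over runs, two-sided, gave p = 0.25, the smallest that 1 run against 3 allows. Gapdh, the reference gene, was detected in every cell, at 15.0, 14.5 and 14.5 cycles in the B6 runs and 15.2 cycles in the Tcrd-/- run, a difference of 0.49 cycles (exact permutation p = 0.25). For each assay called, its difference adjusted for the number of other assays detected in the cell is given beside it.

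**Figure D1:**
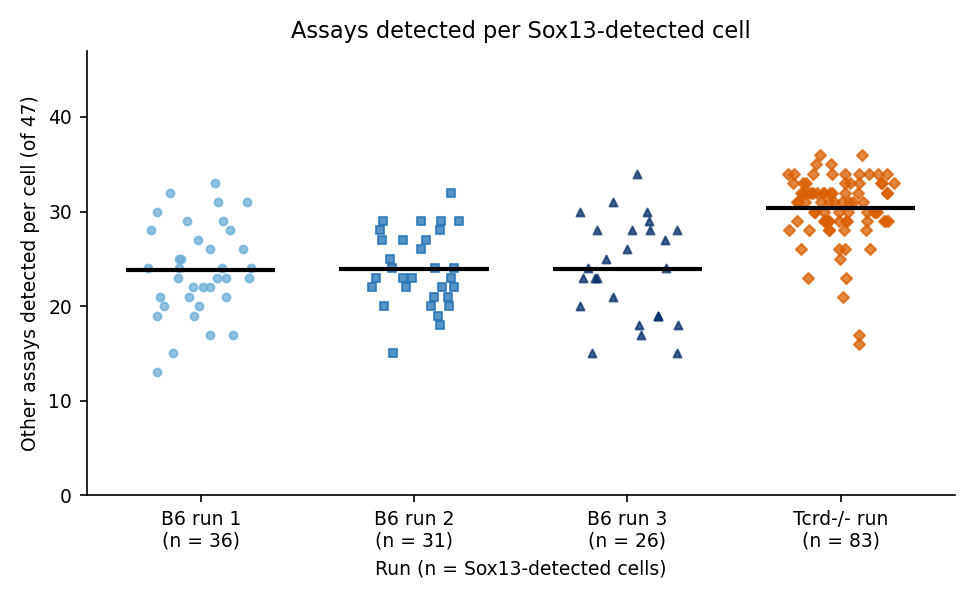
Number of assays other than Sox13 detected in each Sox13-detected DN1d cell (vertical axis, of 47), by run (horizontal axis). Each point is a cell, and the black line is the mean of the run. The B6 means lie between 23.8 and 24 and the Tcrd-/- mean at 30.3, and the cells of both genotypes overlap.

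Of the 47 other assays, 45 were detected in at least 1 selected cell and were tested. By share of detecting cells, 7 were higher in Tcrd-/- cells, 15.6% of those tested, and 0% were lower (limma on 1 log odds value per run, Benjamini-Hochberg adjusted p below 0.05). They were Runx1, Cdk6, Etv5, Sox4, Smo, Cpa3 and the E47 form of Tcf3. Before adjustment 11 passed 0.05, all of them higher. By mean level over all selected cells, with undetected reactions at 0, 5 were higher, 11.1% of those tested, and 0% lower: Smo, Vd4-Jd1, Cpa3, Runx1 and Tcf3 E47. By level 9 passed 0.05 before adjustment, all of them higher. Both measures called 4 assays, 57.1% of the detection calls and 80% of the level calls. The level calls were of assays whose 3 B6 run means lay close together, with SDs from 0.119 cycles (Smo) to 0.346 cycles (Tcf3 E47). Gzma had a larger difference than any of them, 6.24 cycles, with an SD of 0.854 cycles, and was not called. The Tcrd-/- share lay above all 3 B6 runs for 24 assays (53.3%), within their range for 21 (46.7%) and below them for 0%. The Tcrd-/- level lay above the B6 runs for 35 assays (77.8%), within their range for 10 (22.2%) and below for 0%.

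**Figure D2:**
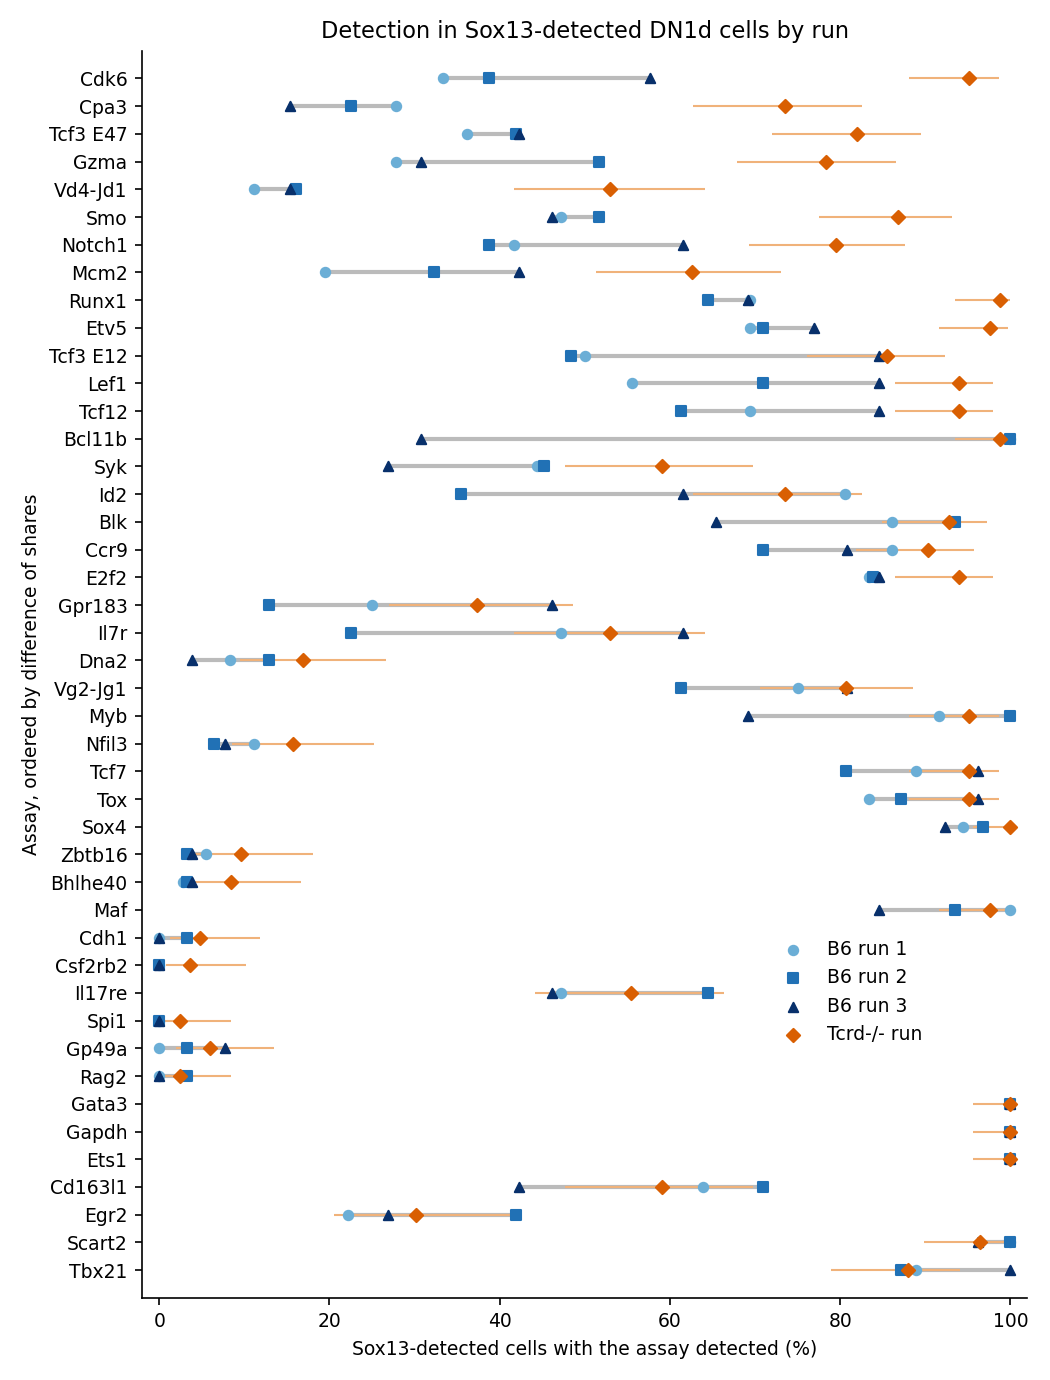
Share of Sox13-detected DN1d cells with each assay detected (horizontal axis, percent), for 44 assays ordered by the difference between genotypes (vertical axis). Blue points are the 3 B6 runs joined by a grey line over their range, orange diamonds are the Tcrd-/- run, and orange lines are its exact 95% binomial interval. For Cdk6, Cpa3, Tcf3 E47, Vd4-Jd1, Smo and Runx1 the interval lies to the right of all B6 runs, while Cd163l1, Il17re and Egr2 lie within their range.

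Runx1, a transcription factor of T cell specification and of blood stem cells, showed the largest difference in log odds of detection, though not in every setting. It was detected in 69.4%, 64.5% and 69.2% of cells in B6 runs 1, 2 and 3 and in 98.8% of Tcrd-/- cells (exact 95% interval 93.5% to 99.97%), so that 82 of 83 Tcrd-/- cells expressed it. The log odds of detection differed by 3.29 ± 0.38 (SE; limma, adjusted p = 0.0388). Its mean level was 6.06, 6.02 and 6.59 cycles in the B6 runs against 10.5 cycles, a difference of 4.30 ± 0.36 (SE; limma, adjusted p = 0.0201). The B6 runs lay close together, and the Tcrd-/- run was well above them on both measures. With the number of other assays adjusted for, the differences were 2.46 in log odds (limma, adjusted p = 0.0503) and 2.44 cycles (adjusted p = 0.0838). The log odds difference of Cdk6 was then larger than that of Runx1, at 2.59.

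Cdk6, a cyclin-dependent kinase of the G1 phase, was detected in 33.3%, 38.7% and 57.7% of cells in the B6 runs and in 95.2% of Tcrd-/- cells (88.1% to 98.7%). B6 run 3 stood above the other two, and the Tcrd-/- run above all. The difference in log odds was 3.14 ± 0.55 (SE; limma, adjusted p = 0.0495), and 2.59 (adjusted p = 0.150) at equal number of assays. Its level of 3.14, 3.34 and 5.70 cycles in the B6 runs and 9.66 in the Tcrd-/- run did not pass the test (difference 5.60 ± 1.41 cycles; limma, adjusted p = 0.193). The other 3 assays of the cell cycle and replication list did not pass either test. Mcm2, a subunit of the replicative helicase, was detected in 19.4%, 32.3% and 42.3% of B6 cells and 62.7% of Tcrd-/- cells (difference in log odds 1.31; adjusted p = 0.204). E2f2, a cell cycle transcription factor, stood at 83.3%, 83.9% and 84.6% against 94%. Dna2, a nuclease and helicase of replication, was rare, at 8.33%, 12.9% and 3.85% against 16.9%. All 4 had a Tcrd-/- share and level above every B6 run, as had 53.3% of all assays by share and 77.8% by level; the median log odds difference of the list was 1.19, and that of all assays tested 0.86.

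Smo, the signal transducer of the Hedgehog pathway, was detected in 47.2%, 51.6% and 46.2% of cells in the B6 runs and in 86.7% of Tcrd-/- cells (77.5% to 93.2%). Its level was 4.46, 4.23 and 4.37 cycles in the B6 runs and 9.04 cycles in the Tcrd-/- run. The B6 means average undetected cells at 0 with detecting cells at 9.45, 8.19 and 9.48 cycles. Their closeness is therefore no measure of precision, and the SE below has no separate term for the sampling of cells. The B6 runs hardly varied, and Smo had the lowest p of the level test, with a difference of 4.69 ± 0.22 cycles (SE; limma, adjusted p = 0.00962). In log odds the difference was 1.91 ± 0.38 (SE; limma, adjusted p = 0.0495). At equal number of assays it was 1.70 cycles (limma, adjusted p = 0.0838) and 0.66 in log odds (adjusted p = 0.401). The other assay without a list of its own, Bhlhe40, was detected in 1 cell of each B6 run and 7 Tcrd-/- cells.

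Cpa3, a protease of mast cells that early blood progenitors also transcribe, was detected in 27.8%, 22.6% and 15.4% of cells in the B6 runs and in 73.5% of Tcrd-/- cells (62.7% to 82.6%). Its level was 2.12, 1.71 and 1.59 cycles against 7.08 cycles. The Tcrd-/- run lay above all B6 runs, as for 53.3% of all assays by share and 77.8% by level, while single cells overlapped. Both tests passed, with a difference of 2.25 ± 0.46 in log odds (SE, limma, adjusted p = 0.0495) and of 5.27 ± 0.33 cycles (SE, limma, adjusted p = 0.0120). With the number of other assays adjusted for, neither passed, at 1.55 in log odds (limma, adjusted p = 0.207) and 3.68 cycles (adjusted p = 0.0621). Myb, the other progenitor gene, a transcription factor of immature blood cells, did not pass: its shares were 91.7%, 100% and 69.2% in the B6 runs and 95.2% in the Tcrd-/- run, within the B6 range. Spi1, which marks myeloid cells and early progenitors, was detected in 2 Tcrd-/- cells only, so that most Cpa3-detecting cells had no Spi1 signal.

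Among the E proteins, the E47 splice form of Tcf3 passed both tests, and the E12 form and Tcf12 passed neither. Tcf3 E47 was detected in 36.1%, 41.9% and 42.3% of cells in the B6 runs and in 81.9% of Tcrd-/- cells (72% to 89.5%). Its level was 2.96, 2.88 and 3.51 cycles against 7.16 cycles. The difference was 1.88 ± 0.39 in log odds (SE; limma, adjusted p = 0.0495) and 4.05 ± 0.39 cycles (SE; limma, adjusted p = 0.0231). Both calls of E47 ended at equal number of assays, with 1.06 in log odds (limma, adjusted p = 0.208) and 2.34 cycles (adjusted p = 0.0838). Tcf3 E12 stood at 50%, 48.4% and 84.6% in the B6 runs and 85.5% in the Tcrd-/- run, so that B6 run 3 lay close to the Tcrd-/- run. Tcf12 was detected in 69.4%, 61.3% and 84.6% of B6 cells and 94% of Tcrd-/- cells (difference in log odds 1.71; limma, adjusted p = 0.169). Whether the 2 forms of Tcf3 differ in their response was not tested.

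**Figure D3:**
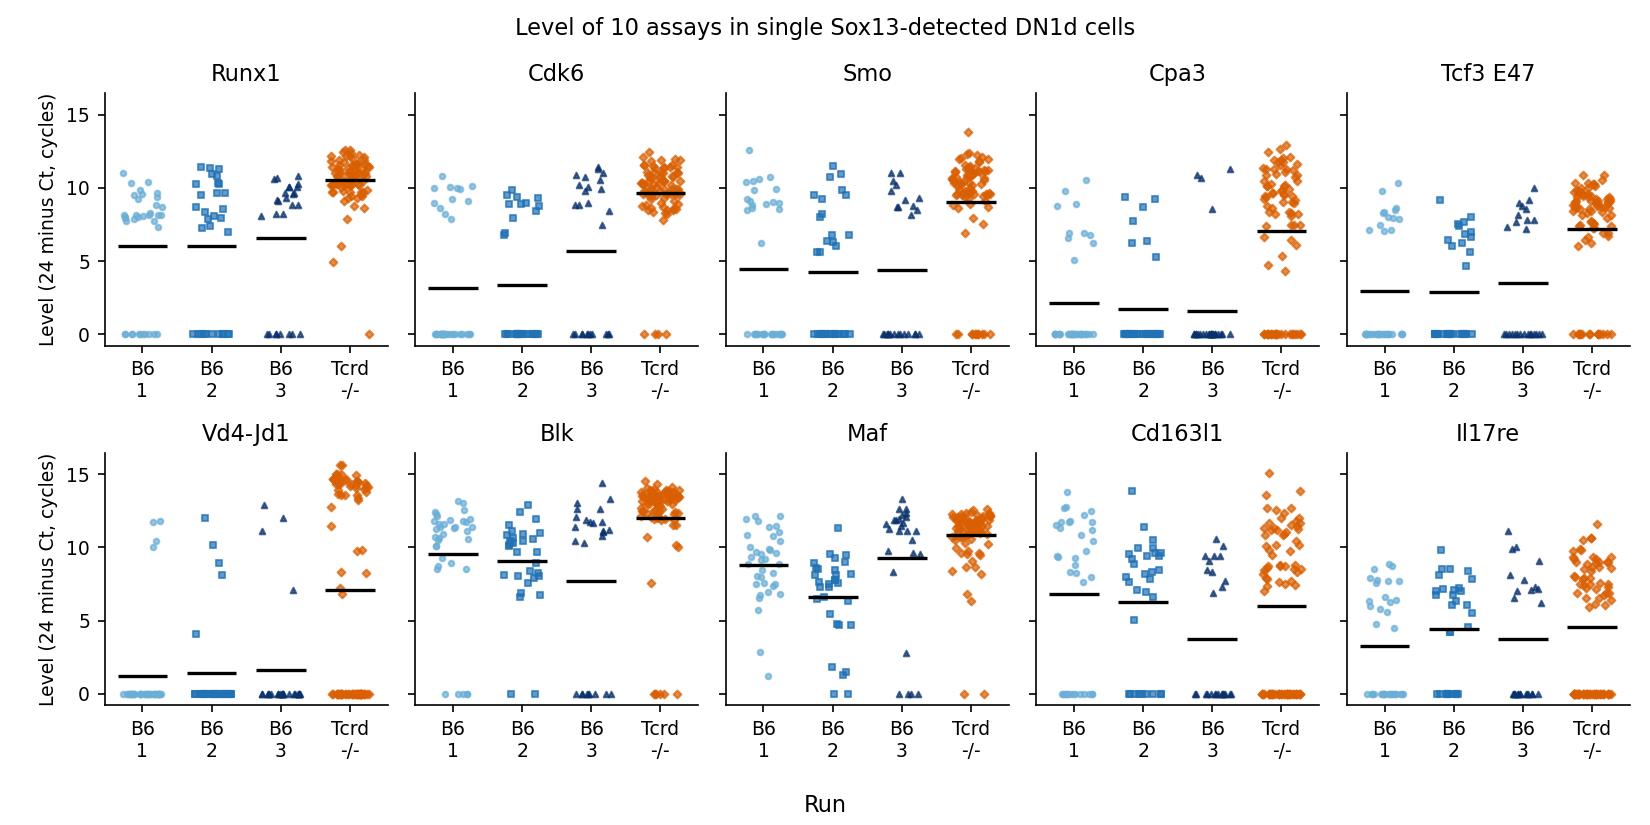
Level (24 minus Ct, cycles, vertical axis) of 10 assays in single Sox13-detected DN1d cells by run (horizontal axis). Each point is a cell, points at 0 are undetected reactions, and black lines are run means. For Runx1, Cdk6, Smo, Cpa3 and Tcf3 E47 a smaller share of Tcrd-/- than of B6 cells lies at 0, while Cd163l1 and Il17re have many cells at 0 in every run.

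Of the 9 Tgd17 programme genes, Etv5 and Sox4 were higher in Tcrd-/- cells by detection (2 of 9), and 0 passed by level, counts that stand beside 7 of 45 (15.6%) and 5 of 45 (11.1%) over all assays tested. Etv5, an ETS family transcription factor, was detected in 69.4%, 71% and 76.9% of cells in the B6 runs and in 97.6% of Tcrd-/- cells (91.6% to 99.7%), a difference in log odds of 2.55 ± 0.40 (SE; limma, adjusted p = 0.0495). At equal number of assays it was 1.45 for Etv5 and 1.57 for Sox4 (limma, adjusted p = 0.178 for each). Its level was 7.36, 6.06 and 8.52 cycles against 12.1 cycles, above each B6 run but not past the threshold (adjusted p = 0.193). Sox4 was near its ceiling in both genotypes, with 94.4%, 96.8% and 92.3% of cells in the B6 runs and 83 of 83 Tcrd-/- cells, so that its call (2.48 ± 0.47 in log odds; limma, adjusted p = 0.0495) rests on 5 undetected B6 cells. The log odds added 0.5 cells to each side, which gives even assays detected in every cell, such as Gapdh, Ets1 and Gata3, a difference of 0.98. With an offset scaled to the number of cells in the run, a choice made after seeing the data, Gapdh differed by 0, and Sox4 no longer passed (1.78; limma, adjusted p = 0.105). The same offset ended the calls of Cdk6 (3.06) and Cpa3 (2.25; adjusted p = 0.0645 for each). It kept 4 of the 7 detection calls, Runx1, Etv5, Smo and Tcf3 E47, and made 4 further ones. These were Vd4-Jd1 (1.86, limma, adjusted p = 0.0389), E2f2 (0.99, adjusted p = 0.0166), Csf2rb2 and Spi1 (adjusted p = 0.00927 for each). Csf2rb2 and Spi1 were detected in 3 and 2 Tcrd-/- cells and in no B6 cell, so that their SEs can be too small.

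The other named Tgd17 genes did not pass either test. Maf was detected in 100%, 93.5% and 84.6% of cells in the B6 runs and 97.6% in the Tcrd-/- run, and Blk in 86.1%, 93.5% and 65.4% against 92.8%. Both Tcrd-/- shares lay within the B6 range, with differences in log odds of 0.69 (95% interval -2.48 to 3.87) and 0.87 (-1.43 to 3.17). By level they were above each B6 run: Maf stood at 8.83, 6.59 and 9.26 cycles against 10.8 cycles, and Blk at 9.54, 9.05 and 7.74 against 12.0 cycles (limma, adjusted p = 0.302 and 0.225). Cd163l1 and Scart2, scavenger receptor genes of Tgd17 cells, and Il17re, a receptor chain for interleukin-17C, lay within the B6 range by share as well. By level Cd163l1 was within that range too, but Il17re and Scart2 lay above each B6 run. Il17re stood at 3.26, 4.43 and 3.75 against 4.58 cycles, and Scart2 at 10.9, 10.9 and 11.8 against 12.4 cycles. Cd163l1 was detected in 63.9%, 71% and 42.3% of B6 cells and 59% of Tcrd-/- cells, a difference in log odds of -0.012 (95% interval -1.68 to 1.66). Il17re stood at 47.2%, 64.5% and 46.2% against 55.4% (0.11; -1.25 to 1.46). Scart2 was detected in nearly every cell, at 100%, 100% and 96.2% in the B6 runs and 96.4% in the Tcrd-/- run. Il7r, the receptor for a survival factor of lymphocytes, varied widely between B6 runs, at 47.2%, 22.6% and 61.5%, with the Tcrd-/- run at 53%. These intervals leave room for sizeable differences in either direction. The median log odds difference of the 9 genes was 0.40, against 0.86 over all assays tested. By level their median was not smaller, at 1.90 cycles against 1.87 over all assays tested. In detecting cells it was 1.48 cycles, against 1.28 over the 36 assays tested there.

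Among the 8 genes of T lineage specification, Runx1 alone passed, by both measures; 1 of 8 is close to the 15.6% and 11.1% called over all assays. Notch1, the receptor that starts T cell development, was detected in 41.7%, 38.7% and 61.5% of cells in the B6 runs and 79.5% in the Tcrd-/- run, above each of them (difference in log odds 1.44; limma, adjusted p = 0.169). Lef1, a high mobility group box partner of beta-catenin, stood at 55.6%, 71% and 84.6% against 94% (1.76; adjusted p = 0.169). Tcf7, the related factor that starts the T cell programme, was within the B6 range by share, at 88.9%, 80.6% and 96.2% against 95.2%. By level Tcf7 lay above each B6 run, at 7.76, 6.62 and 9.14 against 10.8 cycles. Bcl11b, which fixes T cell commitment, was detected in 100% of cells in B6 runs 1 and 2, in 30.8% in run 3 and in 98.8% of Tcrd-/- cells, so that B6 run 3 stood apart for this gene. Ets1 and Gata3 were detected in every cell of all 4 runs, with Tcrd-/- levels above each B6 run for both. Gata3 stood at 10.6, 9.88 and 11.4 cycles in the B6 runs and 12.2 cycles in the Tcrd-/- run, and Ets1 at 11.6, 11.2 and 12.5 against 13.4 cycles. Rag2, a subunit of the recombinase, was detected in 1 B6 cell and 2 Tcrd-/- cells.

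Of the receptor junctions, Vd4-Jd1 differed and Vg2-Jg1 did not pass. The Vd4-Jd1 assay, which reads a rearranged delta gene, was detected in 11.1%, 16.1% and 15.4% of cells in the B6 runs and in 53% of Tcrd-/- cells (41.7% to 64.1%). By level it stood at 1.22, 1.40 and 1.66 cycles in the B6 runs and 7.12 cycles in the Tcrd-/- run, a difference of 5.70 ± 0.28 cycles (SE; limma, adjusted p = 0.00962). Its difference in log odds, 1.84 ± 0.41, missed the threshold (limma, adjusted p = 0.0576). This level call was the one that held with the number of other assays adjusted for (4.65 ± 0.30 cycles; limma, adjusted p = 0.0341). These SEs rest on the spread between B6 run means and have no separate term for the sampling of cells within a run. Vg2-Jg1, which reads a rearranged gamma gene, was detected in 75%, 61.3% and 80.8% of B6 cells and 80.7% of Tcrd-/- cells, within the B6 range. Vd5-Jd1 was found in 0 of 176 cells, with the same upper limit of 1.70%.

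Both junctions were detected in 3 of 36, 1 of 31 and 4 of 26 cells of B6 runs 1, 2 and 3 and in 40 of 83 Tcrd-/- cells, shares of 8.33%, 3.23%, 15.4% and 48.2% (37.1% to 59.4%). Among the 44 Tcrd-/- cells with Vd4-Jd1, 90.9% also had Vg2-Jg1, and among the 39 without it, 69.2% had. In B6 cells only 13 had Vd4-Jd1, and 8 of them also had Vg2-Jg1 (3 of 4, 1 of 5 and 4 of 4 in runs 1, 2 and 3). Among B6 cells without Vd4-Jd1, 75%, 69.2% and 77.3% had Vg2-Jg1. Whether the junctions were linked was not tested. All selected cells had been sorted as negative for surface TCR delta. This gate may not remove the same cells in mice with an intact and with a targeted delta gene. Its effect on the junction shares was not tested.

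**Figure D4:**
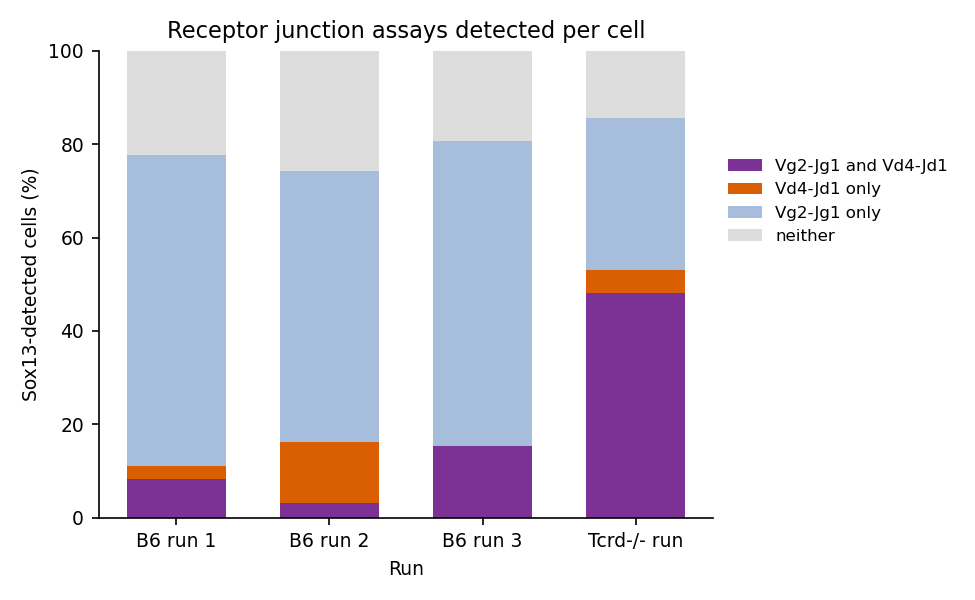
Share of Sox13-detected DN1d cells (vertical axis, percent) with the Vg2-Jg1 and Vd4-Jd1 junction assays detected together, singly or not at all, stacked by run (horizontal axis). Both were detected in 3.23% to 15.4% of cells in the B6 runs and in 48.2% in the Tcrd-/- run.

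No other list had an assay past the threshold by either measure. Gzma, which encodes the cytotoxic protease granzyme A, came close by level: it stood at 3.22, 4.75 and 3.32 cycles in the B6 runs and 10.0 cycles in the Tcrd-/- run (difference 6.24 ± 0.86 cycles; limma, adjusted p = 0.0516), and it was detected in 27.8%, 51.6% and 30.8% against 78.3% of cells. Tbx21, the master factor of type 1 effector cells, was the one assay with a lower mean level in Tcrd-/- cells, at 4.19, 3.08 and 8.06 cycles in the B6 runs and 3.30 cycles, within the B6 range. Among innate lymphoid genes, Id2, an inhibitor of E proteins, was detected in 80.6%, 35.5% and 61.5% of B6 cells and 73.5% of Tcrd-/- cells, and Tox in 83.3%, 87.1% and 96.2% against 95.2%. Zbtb16, the factor PLZF of innate-like T cells, was rare in both, in 4 of 93 B6 cells and 8 of 83 Tcrd-/- cells. Nfil3 was detected in 11.1%, 6.45% and 7.69% against 15.7%. For homing, the chemokine receptor Ccr9 stood at 86.1%, 71% and 80.8% against 90.4%, and Gpr183, a receptor that guides lymphocyte migration, at 25%, 12.9% and 46.2% against 37.3%. The adhesion gene Cdh1 was detected in 1 B6 cell and 4 Tcrd-/- cells. Of the receptor signalling genes, the kinase Syk was detected in 44.4%, 45.2% and 26.9% of B6 cells and 59% of Tcrd-/- cells, and Egr2 in 22.2%, 41.9% and 26.9% against 30.1%.

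In cells that detected an assay, its level showed a general upward displacement in the Tcrd-/- run but no call. With at least 3 detecting cells required in each run, 36 assays were tested; 0% were higher and 0% lower after adjustment (limma), and Vd4-Jd1 and Bcl11b passed an unadjusted 0.05. The Tcrd-/- value was above all B6 runs for 28 assays (77.8%), within their range for 8 (22.2%) and below for 0%, with a median difference of 1.28 cycles. Blk-detecting cells, for example, averaged 11.1, 9.68 and 11.8 cycles in the B6 runs and 12.9 cycles in the Tcrd-/- run, and Runx1-detecting cells 8.73, 9.34 and 9.52 against 10.7 cycles. The limma fit pooled the spread over assays, with an SE of 1.34 cycles for each, so that differences near the median lay within it. With each run's median over the tested assays subtracted, a choice made after seeing the data, Vd4-Jd1 was 1.76 cycles and Blk 0.57 cycles higher in the Tcrd-/- run, while Runx1 (-0.055) and Cdk6 (-0.68) changed sign; 0 assays passed after adjustment (limma), and 1 passed an unadjusted 0.05, lower in Tcrd-/- cells.

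Most differences between genotypes were smaller among Sox13-detected cells than among all DN1d cells. Over all DN1d cells of the same 4 runs, limma called 23 assays higher by detection and 23 by level; the 7 detection calls and the 5 level calls of the Sox13-detected cells were among them. The log odds difference was smaller with the selection for 29 of 45 assays, and the median went from 1.34 to 0.86. The 2 fits carry the offset of 0.5 cells unequally, since the selected B6 runs are smaller. Gapdh, detected in every cell, went from 0.15 to 0.98 for this reason alone. With the offset scaled to cell number, Runx1 differed by 3.03 and Cdk6 by 3.06 among Sox13-detected cells, and no such fit was made over all cells. Blk went from 2.69 to 0.87, Maf from 2.17 to 0.69 and Cd163l1 from 1.41 to -0.012, whereas Runx1 went from 3.39 to 3.29, Cdk6 from 2.86 to 3.14 and Cpa3 from 2.49 to 2.25. Blk, Runx1 and Cdk6 also differed in how they followed Sox13 within B6 mice. Blk was detected in 81.7% ± 14.6 (SD, n = 3 runs) of Sox13-detected and 1.21% ± 2.10 of Sox13-undetected B6 cells. Runx1 was detected in 67.7% ± 2.79 and 65.4% ± 4.85 of them, and Cdk6 in 43.2% ± 12.8 and 35% ± 3.40. Other genes did not share this pattern. Etv5 was detected in 72.4% ± 3.95 and 5.10% ± 6.73, and Smo in 48.3% ± 2.89 and 14.2% ± 9.26. Both were still called among Sox13-detected cells, where Etv5 went from 3.58 to 2.55 and Smo from 2.49 to 1.91. The change between the fits was not tested, since they share cells, and the split of B6 cells by Sox13 is a description.

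**Figure D5:**
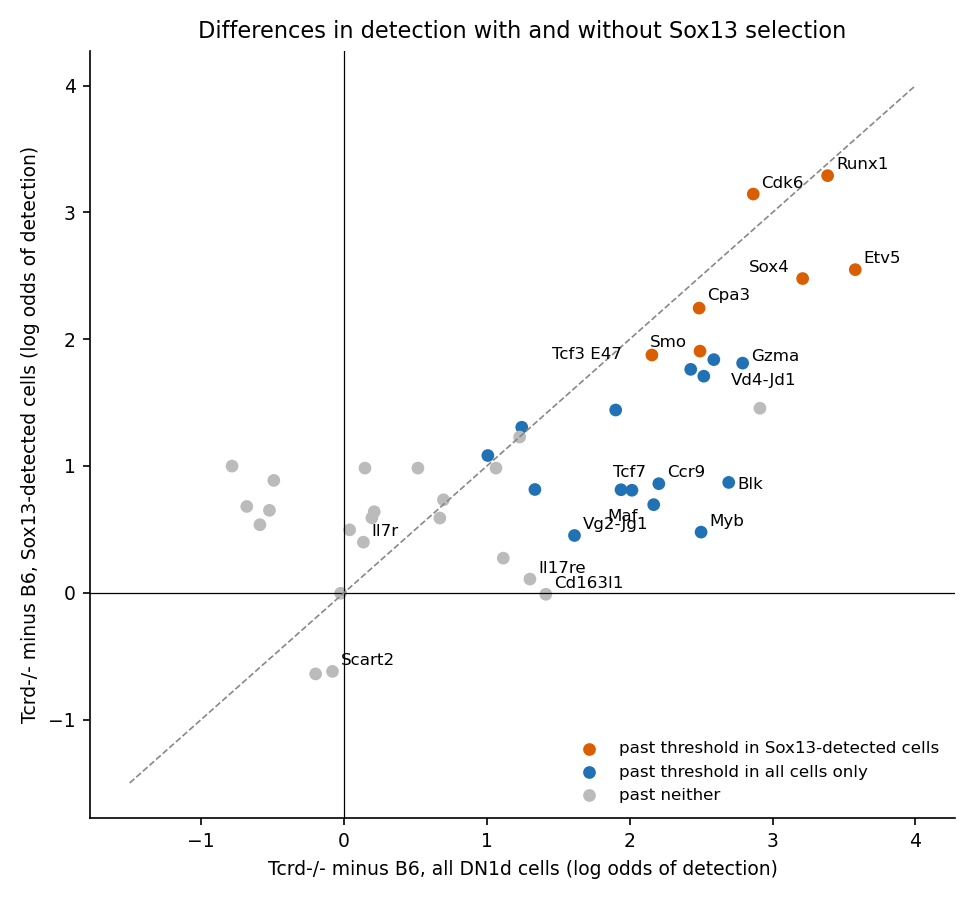
Difference in log odds of detection, Tcrd-/- minus B6, over all DN1d cells (horizontal axis) and over Sox13-detected cells (vertical axis). Each point is an assay, coloured by where it passed limma's adjusted threshold; the dashed line marks equal values. Runx1 (3.39 and 3.29) and Cdk6 (2.86 and 3.14) lie by the line, and Blk (2.69 and 0.87) far below it.

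The calls were sensitive to the runs and to the number of assays per cell. The differences moved less than the calls when B6 run 1 was left out. In log odds they were then 3.33 for Runx1, 2.94 for Cdk6, 2.48 for Etv5 and 2.47 for Sox4. Cpa3 stood at 2.40, Smo at 1.88 and Tcf3 E47 at 1.79. Fits without a run have fewer residual degrees of freedom. Without B6 run 1, limma made 0 detection and 0 level calls (6 and 6 assays at an unadjusted p below 0.05). Without run 2 it made 4 and 0 (10 and 7 unadjusted), and without run 3 it made 7 and 6. Of the 7 detection calls, 6 stood at an adjusted p of 0.0495, just inside the threshold. With the number of other assays adjusted for, 0 detection calls and 1 level call were made (10 and 9 unadjusted). In cells with 25 to 33 other assays, a range chosen after seeing the data that left 14, 12 and 11 B6 cells and 65 Tcrd-/- cells, 0 were made by either measure (11 and 5 unadjusted). Of the 11, 5 (Gapdh, Ets1, Gata3, Myb and Sox4) were detected in every one of these cells, so that the offset and the unequal cell numbers alone gave them 1.63 in log odds (limma, adjusted p = 0.0570). Differences there were 3.01 in log odds for Runx1, 3.41 for Cdk6 and 3.02 for Etv5 (limma, the same adjusted p of 0.0570 for each), 1.24 for Smo (adjusted p = 0.474) and 0.87 for Tcf3 E47 (adjusted p = 0.272). Vd4-Jd1 was detected in 14.3%, 16.7% and 18.2% of those B6 cells and in 55.4% of those Tcrd-/- cells, with a level difference of 5.57 cycles (adjusted p = 0.0585).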

How the data were processed

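Per the labels' protocols, cells were lysed and reverse transcribed on the Fluidigm C1, preamplified for 18 cycles with pooled primers and read by 30 cycles of EvaGreen quantitative PCR. The authors deposited 1 Ct per assay and cell, not normalised, in a table of Ct values with no other unit; the calling of Ct, the use of melt curves and the origin of the ceiling of 24 are not given in the sources used here. Of the reactions of the selected cells, 42.7% stood at 24. The members, gene lists and comparisons were chosen with earlier results of these data known.

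Cells were not treated as replicates. Each assay had 1 value per run, over the Sox13-detected cells: the natural log odds of detection (0.5 added to each side), the mean of 24 minus Ct with undetected reactions at 0, or that mean over detecting cells. Each measure was fitted across assays with limma 3.58.1 in R 4.3.3 (lmFit, eBayes) on the 4 runs, with 2 residual degrees of freedom per assay and Benjamini-Hochberg adjustment. With the spread pooled over assays, the tests used 4.14 degrees of freedom for detection, 2.78 for level and 72 for detecting cells. The SEs rest on the spread of run means and hold no separate term for the sampling of cells within a run. Where the B6 means happen to lie close together, an SE can be too small. Assays at 0 in all B6 runs add no spread, so that SEs can be too small. Adjustment for the number of other assays used a logistic model with a ridge penalty of 0.1 for detection and a linear model for level. Single shares have exact (Clopper-Pearson) intervals at 95%; these and the limit of 3 cells for a count of 0 cover counting error only. The scripts were tested on simulated data. Named assays were all those past the threshold in any fit and 17 genes of the lists whatever their values. The others were given by their shares or cell counts. One further assay is not reported here, though counts include it. Summaries used pandas 2.3.3 and numpy 2.4.6 in Python 3.11.15, and plots used matplotlib 3.10.9. RefSeq (GRCm38.p6) held 43 of the 48 names as symbols and 2 as synonyms, but none of the 3 junctions.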

Additional observations from a re-analysis of the deposited data

How the results depend on the processing

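The 7 assays higher by detection became 4 with Sox13 Ct below 18, 23 with no Sox13 selection, 1 with detection set below Ct 20, 1 with only assays detected in 5% to 95% of cells, 1 with cells with fewer than 15 other assays left out, 1 with robust moderation, 0 with adjustment for the number of other assays and 0 in cells with 25 to 33 other assays. Leaving out a B6 run gave 0 to 7. The 5 assays higher by level became 3 with the Gapdh level subtracted, 23 with no Sox13 selection, 1 with adjustment for the number of assays and 0 in cells with 25 to 33 other assays, and leaving out a B6 run gave 0 to 6. In detecting cells, 1 assay was higher with runs weighted by cell number, and 0 in the other settings run. The difference of 6.44 assays per cell was 6.12 with Sox13 Ct below 18, 10.6 with no selection, and 6.39 to 6.47 without a B6 run. The causes were not tested. No assay was lower in any setting run. Over 22 named assays, 900 values under alternatives held 84 ended calls, 21 new calls and 0 called values with a changed sign; the other 795 stayed on their side of the threshold, 40 of them with a changed sign below it in both fits. The offset scaled to cell number, the range of 25 to 33 assays and the subtraction of run medians were chosen after seeing the data. No paired analysis was possible because the Tcrd-/- group has 1 run.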

Other observations

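The number of assays detected per cell was also counted over 7 assays picked after their values were seen, of which Runx1, Cdk6, Smo, Cpa3, Tcf3 E47 and Vd4-Jd1 passed a test and Gzma did not; Etv5 and Sox4, which also passed, were not among them. A Sox13-detected cell had a median of 2, 2 and 2.5 detected in B6 runs 1, 2 and 3 and of 6 in the Tcrd-/- run. At least 5 of them were detected in 11.1%, 16.1% and 23.1% of cells in the B6 runs and in 88% of Tcrd-/- cells. All 7 were detected in 0 of 93 B6 cells and in 25 of 83 Tcrd-/- cells. Since the assays were chosen for their differences, and the counts follow in part from the share of each assay alone, they are a description; whether the assays were detected together more often than apart was not tested. The 3 Tcrd-/- cells without Sox13, left out above, had Gata3, Ets1, Runx1, Sox4 and Scart2 in 3 of 3 cells, Blk and Cdk6 in 0 of 3, and the myeloid genes Gp49a and Csf2rb2 in 3 of 3 and Spi1 in 1 of 3.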
